A study of Mus musculus with 12 samples.

Results

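The genes of polyamine metabolism were followed in mouse kidney as 10 members chosen by symbol out of 23238 measured symbols: Odc1, Amd1, Srm, Sms, Sat1, Smox, Paox, Azin1, Oaz1 and Oaz2. All 10 were in every file, and all 10 passed the filter on low values. Kidneys of the C57BL/6 strain were profiled with QuantSeq, a kit that sequences mRNA from the poly(A) end. Control mice gave 4 libraries, mice with chronic kidney disease (CKD) another 4, and mice that had the disease and were kept on time restricted feeding (CKD TRF) the last 4. The labels give all groups the same strain and name no allele or further agent. The cause of the disease, feeding hours, sampling time, age and sex are not given in the sources used here.

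Polyamines are small cations, chiefly putrescine, spermidine and spermine, that bind nucleic acids and are needed for growth and translation. Ornithine decarboxylase, made from Odc1, forms putrescine from ornithine, and the synthases encoded by Srm and Sms add aminopropyl groups that are supplied by the decarboxylase encoded by Amd1. Spermidine/spermine acetyltransferase, from Sat1, starts the return path, in which the oxidases from Paox and Smox act. Antizymes, from the Oaz genes, bind ornithine decarboxylase, carry it to the proteasome and lower polyamine uptake, while the antizyme inhibitor from Azin1 binds antizyme in its place. In the mouse kidney Odc1 is known as a gene of the proximal tubule that androgen raises.

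The antizymes are made by a programmed frameshift: at high polyamine levels ribosomes skip a base at a stop codon early in the message. The sites of Oaz1 and Oaz2 are shown because this shift sets how much antizyme is made from each message. They were read from GENCODE M21 transcripts (GRCm38), 5′ to 3′, with the last sense codon and the stop codon in capitals. The annotated coding sequence of both genes leaves out the 4th of the 6 capital bases, at position 80828295 of chromosome 10 for Oaz1 and 65686272 of chromosome 9 for Oaz2.
Oaz1: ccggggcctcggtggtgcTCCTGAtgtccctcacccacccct
Oaz2: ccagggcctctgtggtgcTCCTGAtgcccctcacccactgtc
The 2 sites were equal at 35 of 42 bases, and both lie in coding exons.

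Promoters are shown for Odc1, Oaz2 and Sat1, which fell in CKD, and for Smox, whose CKD values all lay above Control. Each is the 250 bases before a RefSeq transcript start on GRCm38.p6, written along the gene's strand. GENCODE M21 starts these genes earlier for Odc1 (17544794), Smox (131491496) and Oaz2 (65668001). By those bounds the stretches of Smox and Oaz2 lie within the gene, and that of Odc1 does in part. GC boxes, the letters GGGCGG on either strand (CCGCCC on the other), are in capitals.
Odc1 (chr12:17544623-17544872, plus strand): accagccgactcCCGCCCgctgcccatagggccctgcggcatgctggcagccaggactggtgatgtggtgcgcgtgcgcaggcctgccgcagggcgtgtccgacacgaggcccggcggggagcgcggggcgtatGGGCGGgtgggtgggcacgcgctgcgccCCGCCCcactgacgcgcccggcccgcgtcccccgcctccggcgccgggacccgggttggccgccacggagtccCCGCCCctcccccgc
Oaz2 (chr9:65676298-65676547, plus strand): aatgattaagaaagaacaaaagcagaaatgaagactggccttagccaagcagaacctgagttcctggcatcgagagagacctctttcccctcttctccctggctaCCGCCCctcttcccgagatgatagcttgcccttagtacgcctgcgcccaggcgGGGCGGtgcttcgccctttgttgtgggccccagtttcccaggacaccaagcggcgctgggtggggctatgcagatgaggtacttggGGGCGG
Sat1 (chrX:155216450-155216699, minus strand): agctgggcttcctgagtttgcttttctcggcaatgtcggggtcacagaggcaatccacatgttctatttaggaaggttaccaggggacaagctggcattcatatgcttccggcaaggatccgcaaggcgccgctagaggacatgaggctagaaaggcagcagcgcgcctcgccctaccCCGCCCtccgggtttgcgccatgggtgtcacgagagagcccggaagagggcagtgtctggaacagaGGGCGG
Smox (chr2:131491612-131491861, plus strand): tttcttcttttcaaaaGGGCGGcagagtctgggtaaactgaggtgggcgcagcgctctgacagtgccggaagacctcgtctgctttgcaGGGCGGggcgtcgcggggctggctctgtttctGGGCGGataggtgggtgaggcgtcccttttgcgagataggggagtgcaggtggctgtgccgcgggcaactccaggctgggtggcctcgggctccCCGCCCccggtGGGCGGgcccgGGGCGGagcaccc
RefSeq promoters were matched for 8 of the 10 members, as 10 promoters, without Srm and Azin1. A GC box was in 8 of these 10 promoters, from 7 genes, and in 32.74% of all 32851 promoters of this length. The Odc1 promoter is 80.0% G and C, where the median of all promoters is 52.4%. The E-box CACGTG, the palindrome that Myc binds, was in 1 member promoter, that of Sms, and in 6.02% of all promoters. No member promoter held the exact letters TATAAA, a core of the TATA box, which were in 12.37% of all. That of Amd1 held the near form TATATAAG, which this exact search does not count. The AP-1 site TGACTCA was also absent from the member promoters and in 4.46% of all, and the cyclic AMP response element TGACGTCA in 1.55%. CCAAT was found before Oaz1 and Sms, and TGACNNNGC before Oaz1 and Smox, against 33.85% and 10.16%. All motifs were searched on both strands, and overlapping matches counted. Only these 250 bases were searched, so sites elsewhere, such as within the gene, are not covered.

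The deposited value of a gene is log2 of scaled reads plus 1, where scaled reads are reads times a factor that differs between libraries (close to CPM). Control libraries held 10989996 to 12810627 reads, CKD libraries 14512396 to 16857679 and CKD TRF libraries 14145851 to 17210215. A count of 0 allows up to 3 reads, or 0.168 to 0.306 scaled reads by library, as counting error alone goes. Levels of different genes are not compared, because a 3′ read number depends on the end sequence of each gene. The labels do not say that each library is a separate mouse, so p-values measure only the spread between these libraries. Markers of proximal tubule, loop of Henle and podocyte were present in all libraries. Whole kidney is a mixture, so fewer cells of a type and less RNA per cell cannot be told apart.

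The first comparison asks which polyamine genes differ in the diseased kidney. Odc1, Oaz2, Srm and Sat1 were lower in CKD than in Control, at 0.339 to 0.687 times the Control level on the log2(scaled reads + 1) scale, and no member was called higher. Odc1 had the largest change of the 10. Amd1, Azin1 and Paox lay within their spread. In limma, with Benjamini-Hochberg adjustment over 13943 genes and a threshold of 0.05, the call was lower for 4 of 10 members and higher for 0 of 10. Of all tested genes 45.4% were called, 21.8% lower and 23.6% higher. The median change over the 10 members was -0.43, beside 0.02 over all tested genes. That median rests in part on the Oaz1 value of -0.53, which is near the floor and uncertain, as described below. With reads of its pseudogene Oaz1-ps added, the Oaz1 change was -0.02, which would make the median fall smaller. The groups did not overlap for 4 members that were lower and 1 that was higher, and for 39.5% of all tested genes (19.2% lower, 20.3% higher).

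**Figure D1:**
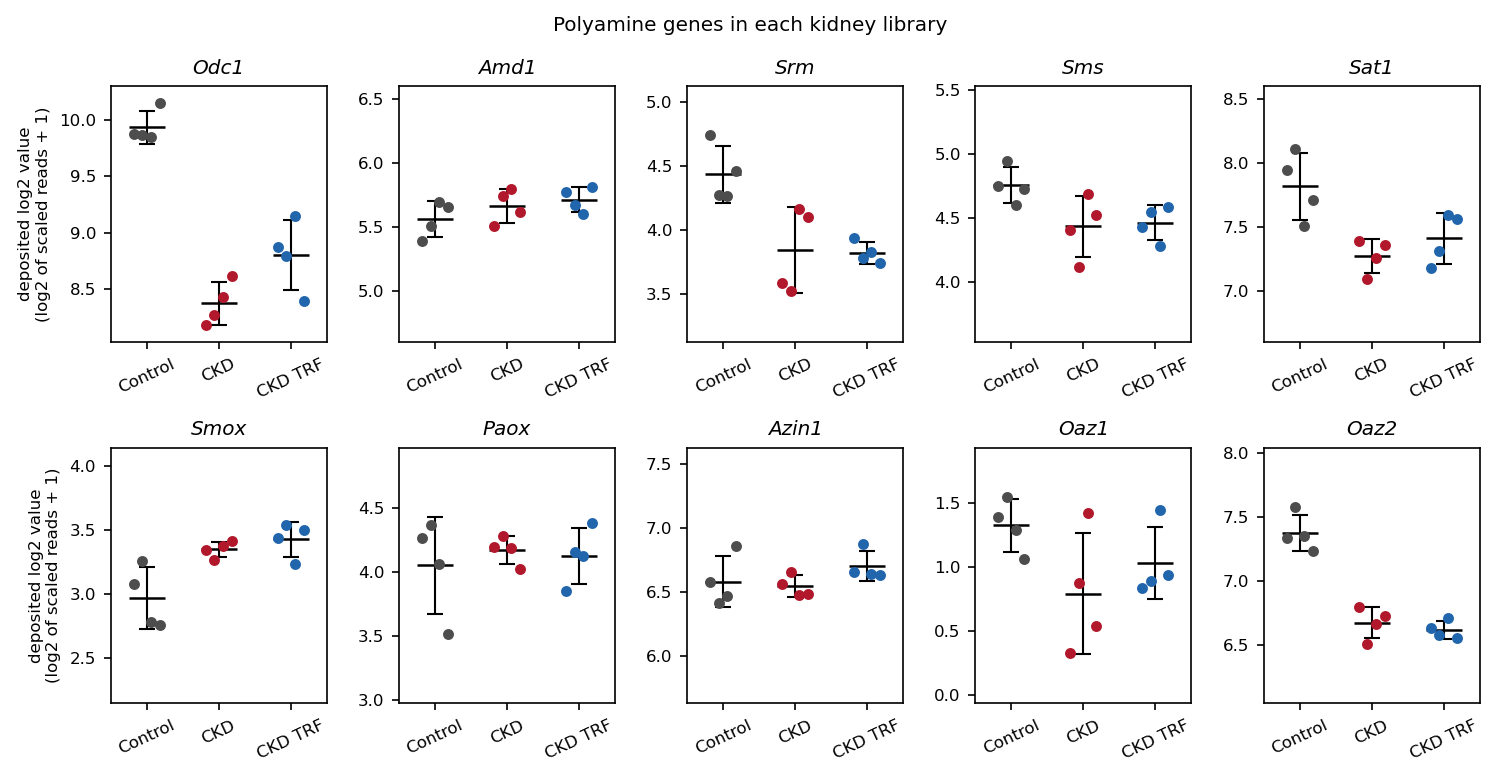
Deposited log2 value (vertical axis, log2 of scaled reads plus 1) of each member in each of the 12 libraries; points are libraries by group, bars are group mean and SD. The 4 Odc1 values of CKD, 8.18 to 8.62, sit below the 4 of Control, 9.84 to 10.15, with CKD TRF between 8.39 and 9.15.

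Ornithine decarboxylase opens the pathway. The Odc1 log2 values were 9.87, 9.87, 9.84 and 10.15 in the Control libraries, 8.18, 8.27, 8.43 and 8.62 in CKD, and 8.87, 8.79, 9.15 and 8.39 in CKD TRF. Every library of both diseased groups lay below every Control library, and 3 of the 4 CKD TRF libraries lay above all CKD libraries. In scaled reads the means were 980 ± 103 (SD, n = 4) in Control, 333 ± 45.0 in CKD kidneys and 453 ± 94.9 in CKD TRF. The change from Control to CKD was -1.56 ± 0.13 (SE), with an adjusted p of 2.43e-08 in limma, and only 0.265% of tested genes had a lower value of this change. It stayed between -1.66 and -1.17, and was called, in all 27 alternative analyses.

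Odc1 lies on chromosome 12 at 17544794 to 17551505, plus strand (GRCm38, GENCODE M21), and 17.7% of the 50-base windows in its last 500 transcript bases also occur in other annotated genes. The 5 genes whose 12 centred log2 values lay nearest to those of Odc1 were Hsd3b3, Psmb7, Hsd11b1, Erich4 and Slco1a1. Their root mean square differences from it were 0.184, 0.189, 0.190, 0.221 and 0.226, while Odc1 itself spanned 1.97. Hsd3b3 and Hsd11b1 encode steroid dehydrogenases, Psmb7 a proteasome subunit and Slco1a1 an organic anion transporter. Slco1a1 had mean log2 values of 9.84 ± 0.27 (SD, n = 4) in Control, 8.42 ± 0.14 in CKD kidneys and 8.62 ± 0.34 in CKD TRF.

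Amd1 encodes S-adenosylmethionine decarboxylase, the source of the aminopropyl groups. The log2 values of Amd1 were 5.39, 5.51, 5.70 and 5.66 in Control, 5.51, 5.75, 5.80 and 5.62 in CKD, and 5.77, 5.67, 5.60 and 5.82 in CKD TRF. The 3 groups overlapped. The change from Control to CKD was 0.10 (95% interval -0.12 to 0.33, adjusted p 0.455 in limma). The gene is on chromosome 10 at 40287458 to 40302186, and 99.3% of its end windows also occur in other genes, chiefly Amd2. Reads of Amd1 and Amd2 can therefore not be told apart with certainty. The sum over both was 117 ± 9.02 scaled reads (SD, n = 4) in Control, 122 ± 10.7 in CKD kidneys and 124 ± 10.1 in CKD TRF. Amd1 held 37.7% to 43.3% of that sum, and the summed change from Control to CKD was 0.05 ± 0.10 (SE).

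Spermidine synthase, from Srm, had log2 values of 4.74, 4.27, 4.26 and 4.46 in Control, 3.59, 3.52, 4.16 and 4.10 in CKD, and 3.94, 3.78, 3.83 and 3.74 in CKD TRF. All 8 diseased libraries lay below all 4 Control libraries, and CKD held a lower and a higher pair. The change was -0.59 ± 0.17 (SE, adjusted p 0.00702 in limma) in CKD and -0.61 ± 0.17 (adjusted p 0.00687) in CKD TRF. Srm lies on chromosome 4 at 148591503 to 148594993, and none of its end windows occur in another gene. The fall in CKD was -0.38 (adjusted p 0.069) after scaling to equal sums of scaled reads and missed the threshold. With fat and urothelium markers as a covariate the calls in CKD (-0.57, adjusted p 0.0737 in limma) and in CKD TRF (-0.60, 0.0692) were both lost.

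Spermine synthase, from Sms, had log2 values of 4.75, 4.94, 4.60 and 4.73 in Control, 4.41, 4.12, 4.68 and 4.53 in CKD, and 4.43, 4.55, 4.28 and 4.58 in CKD TRF. Only CKD 3, at 4.68, reached into the Control range, and CKD TRF lay wholly below it. The change was -0.32 (95% interval -0.61 to -0.03, adjusted p 0.0673 in limma) in CKD and -0.29 (adjusted p 0.106) in CKD TRF, so neither passed. Without CKD 3 the change was -0.40 (adjusted p 0.0354), which passed. Of its end windows, 26.6% also occur in other genes, Sms-ps first.

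On the return path, Sat1 encodes the acetyltransferase that marks spermidine and spermine for export or oxidation. Its log2 values were 7.95, 8.11, 7.51 and 7.72 in Control, 7.39, 7.10, 7.26 and 7.36 in CKD, and 7.18, 7.32, 7.59 and 7.57 in CKD TRF. CKD lay below every Control library, while CKD TRF 3 and CKD TRF 4 lay within the Control range. In scaled reads the means were 228 ± 41.3 (SD, n = 4), 155 ± 14.0 and 171 ± 23.4. The change was -0.54 ± 0.12 (SE, adjusted p 0.00145 in limma) in CKD and -0.41 ± 0.12 (adjusted p 0.0144) in CKD TRF. The call in CKD was lost under quantile normalization of the log2 values, at -0.28 (adjusted p 0.0735). The call in CKD TRF was lost in 7 alternative analyses, with -0.18 under quantile normalization and -0.26 both after scaling to equal sums and with voom.

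The genes nearest to Sat1 over the 12 libraries, by the same measure as for Odc1, were Oard1, Magoh, Trappc3, Srsf4 and Map1lc3a. Their root mean square differences ran from 0.0772 to 0.108, where Sat1 spanned 1.01. Sat1 is on chromosome X at 155213132 to 155216449, minus strand.

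Smox encodes spermine oxidase, which turns spermine into spermidine and releases hydrogen peroxide. Smox log2 values were 3.08, 3.26, 2.78 and 2.76 in Control, 3.34, 3.27, 3.37 and 3.41 in CKD, and 3.44, 3.54, 3.23 and 3.50 in CKD TRF. The CKD libraries all lay above Control, with Control 2 and CKD 2 nearly touching. The change was 0.38 (95% interval 0.03 to 0.73, adjusted p 0.0697 in limma), which did not pass, and 0.46 ± 0.17 (SE, adjusted p 0.0359) in CKD TRF, which did. Counts behind these values were 63 to 93 reads in Control and 141 to 161 in CKD. The call in CKD TRF was lost in 11 of the alternative analyses, including the replicate block (adjusted p 0.0503) and leaving out Control 3, Control 4, CKD TRF 1, CKD TRF 2 or CKD TRF 4 (adjusted p 0.0652 to 0.101). The call in CKD was gained in 5, among them scaling to equal sums (0.58, adjusted p 0.00626) and leaving out Control 2 (0.48, adjusted p 0.0285).

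Paox encodes the oxidase of acetylated polyamines. Its log2 values were 4.26, 4.37, 4.06 and 3.51 in Control, 4.19, 4.28, 4.18 and 4.03 in CKD, and 3.85, 4.15, 4.12 and 4.38 in CKD TRF. Control 4 was the lowest library, and the groups overlapped. The change in CKD was 0.12 (95% interval -0.24 to 0.48, adjusted p 0.599 in limma). Paox overlaps Echs1, a mitochondrial fatty acid enzyme gene, on the opposite strand of chromosome 7. The strand setting of the counting is not given in the sources used here, so reads of the 2 genes cannot be told apart with certainty. In addition 45.2% of its end windows also occur in other genes, chiefly the pseudogene Gm19680.

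Among the regulators, Azin1 encodes the antizyme inhibitor. Across libraries its log2 values were 6.58, 6.41, 6.46 and 6.86 in Control, 6.56, 6.65, 6.47 and 6.48 in CKD, and 6.65, 6.88, 6.64 and 6.63 in CKD TRF. Control overlapped both diseased groups, while 3 of the 4 CKD libraries lay below every CKD TRF library and CKD 2 lay just inside that range. The change in CKD was -0.04 (95% interval -0.26 to 0.19, adjusted p 0.814 in limma), and none of its end windows occur in another gene. Azin1 overlaps the antisense gene Gm49077 on chromosome 15, whose reads could enter its count if strand was not used.

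Oaz2 encodes the second antizyme. Its log2 values were 7.34, 7.58, 7.35 and 7.24 in Control, 6.80, 6.51, 6.67 and 6.73 in CKD, and 6.64, 6.58, 6.71 and 6.56 in CKD TRF. No diseased library reached the lowest Control library, and both diseased groups covered nearly the same values. In scaled reads the means were 166 ± 17.1 (SD, n = 4), 102 ± 8.52 and 97.7 ± 4.79. The change was -0.70 ± 0.10 (SE, adjusted p 8.99e-06 in limma) in CKD and -0.76 ± 0.10 (adjusted p 5.79e-06) in CKD TRF. The CKD change stayed between -0.80 and -0.47 and was called in all 27 alternative analyses. Oaz2 lies on chromosome 9 at 65668001 to 65690300, and 11.9% of its end windows also occur in other genes.

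Oaz1, the major antizyme gene of most tissues, was listed near the floor. The log2 values listed were 1.40, 1.55, 1.29 and 1.07 in Control, 0.33, 0.88, 1.42 and 0.55 in CKD, and 0.84, 0.90, 1.45 and 0.94 in CKD TRF. These stand for 4 to 29 reads per library, and CKD 3 lay among the Control values. The change in CKD was -0.53 (95% interval -1.08 to 0.02, adjusted p 0.109 in limma) and did not pass, but passed without CKD 3 (-0.74, adjusted p 0.0309).

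The processed pseudogene Oaz1-ps, on chromosome 17 at 17345456 to 17346140, held almost all reads of this sequence. Of the 50-base windows in the last 500 transcript bases of Oaz1, 52.3% also occur in Oaz1-ps, and 100% of those of Oaz1-ps occur in Oaz1. The symbol Oaz1 held 0.114% to 0.694% of the sum of both. The sum was 259 ± 34.3 scaled reads (SD, n = 4) in Control, 255 ± 19.9 in CKD kidneys and 273 ± 21 in CKD TRF. Its change from Control to CKD was -0.02 ± 0.10 (SE, adjusted p 0.888 in limma). The value listed for Oaz1 is therefore uncertain, and no direction is read from it.

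**Figure D2:**
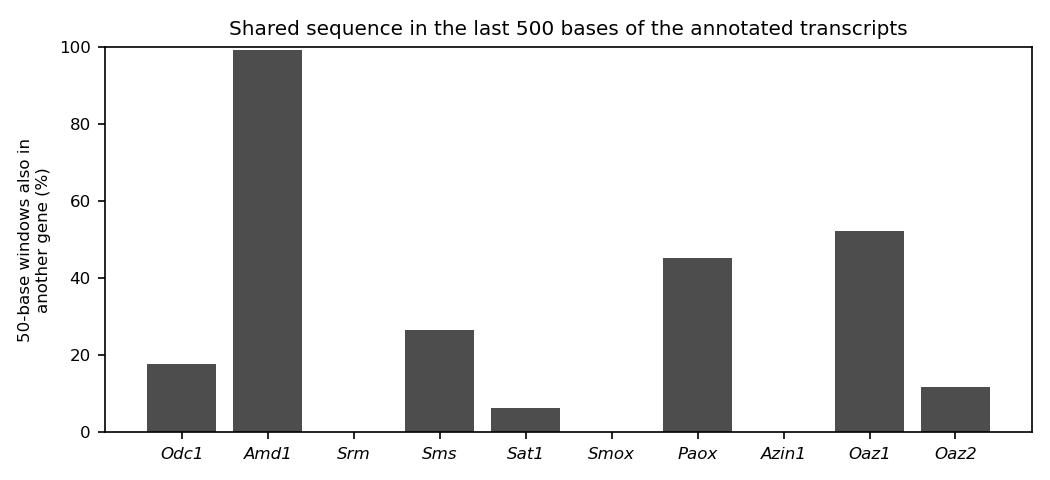
Share of 50-base windows in the last 500 bases of each member's annotated transcripts that also occur in another annotated gene (vertical axis, percent, from 0). Amd1 stands at 99.3% and Oaz1 at 52.3%, while Srm, Smox and Azin1 stand at 0.

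The second comparison asks whether time restricted feeding changed these genes in the diseased kidney. No member was called in CKD TRF against CKD, and the share called among all tested genes was 0%. Odc1 had the largest positive change of the 10 members, 0.43 (95% interval 0.15 to 0.71, adjusted p 0.705 in limma), and its groups overlapped because CKD TRF 4, at 8.39, lay below CKD 3 and CKD 4. It was the only member with an unadjusted p under 0.05, a mark that 890 of the tested genes, or 6.38%, reached. Of the tested genes, 97.8% had a lower value of this change. The groups overlapped for all 10 members, where 4.5% of all tested genes had groups apart (2.37% higher, 2.13% lower). The test with limma voom on recovered reads also called 0 genes.

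For the other members the intervals of this difference bound what could be seen. Sat1 changed by 0.14 (95% interval -0.12 to 0.40), Azin1 by 0.16 (-0.06 to 0.38) and Oaz2 by -0.05 (-0.26 to 0.15) on the log2 scale. The Srm difference was -0.02 (-0.37 to 0.33), that of Sms 0.03 (-0.26 to 0.32) and that of Amd1 0.05 (-0.18 to 0.27). Smox gave 0.08 (-0.27 to 0.43), Paox -0.05 (-0.41 to 0.32) and Oaz1 0.24 (-0.32 to 0.79). None of these intervals lies wholly to either side of 0, and a missed threshold does not show that the groups are alike.

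The third comparison sets CKD TRF against Control. It shares its Control libraries with the first, so the values stand side by side and are not independent. Odc1 was at 0.457 times the Control level, a change of -1.13 ± 0.13 (SE, adjusted p 2.31e-06 in limma). Oaz2, Srm and Sat1 were again lower, with the values given above, and Smox was higher. The calls were lower for 4 of 10 members and higher for 1 of 10, beside 37.5% of all tested genes called, 17.9% lower and 19.5% higher. The groups did not overlap for Odc1, Oaz2, Srm and Sms, all lower, and for 31.9% of all tested genes (15.6% lower, 16.3% higher). Amd1 changed by 0.15 (adjusted p 0.286), Paox by 0.07 (0.767), Azin1 by 0.12 (0.391), Sms by -0.29 (0.106) and Oaz1 by -0.30 (0.406), and none of these passed in limma.

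**Figure D3:**
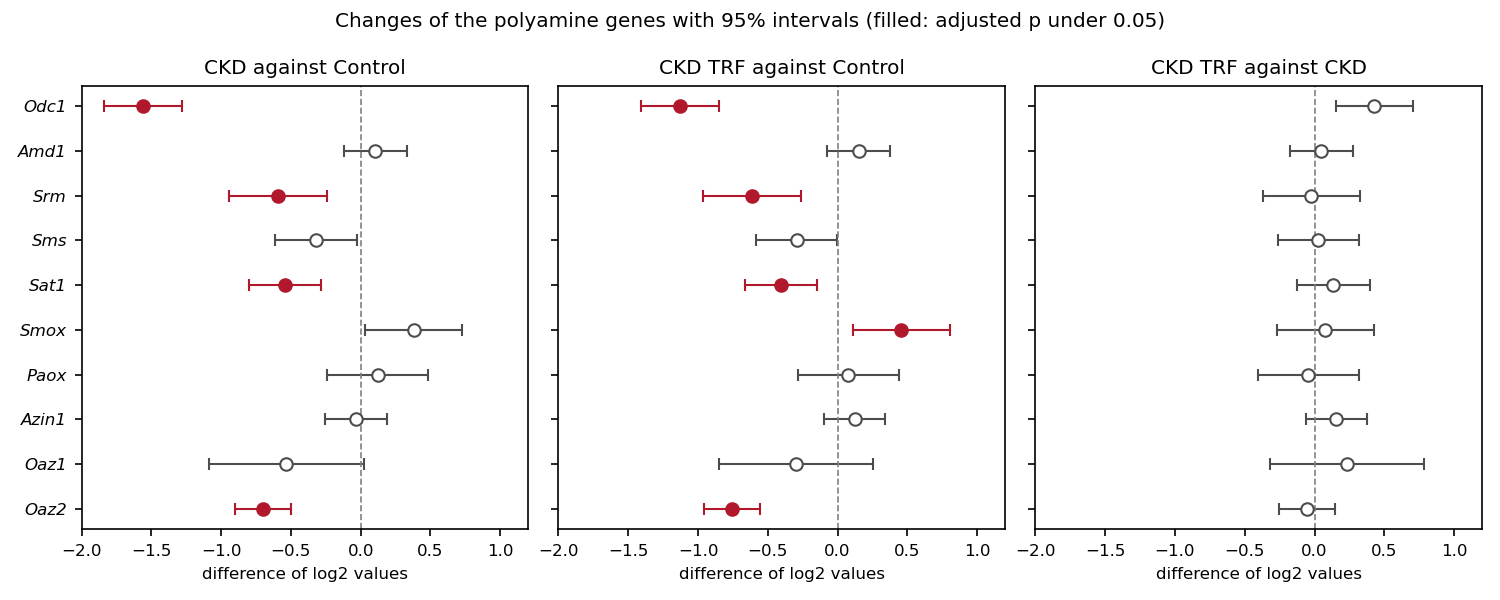
Difference of log2 values (horizontal axis) with 95% intervals for each member in the 3 comparisons; filled red points have an adjusted p under 0.05. Odc1 is at -1.56, -1.13 and 0.43, and no point is filled in CKD TRF against CKD.

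Within a library the scaling factor cancels in the difference of 2 genes, apart from the added 1, so such differences do not rest on the scaling. Odc1 minus Azin1, the log2 difference between the enzyme and the inhibitor of its inhibitors, ran from 3.29 to 3.46 in Control, from 1.61 to 2.13 in CKD kidneys and from 1.76 to 2.51 in CKD TRF. Odc1 minus Sat1 ran from 1.76 to 2.43 in Control, from 0.79 to 1.25 in CKD kidneys and from 0.82 to 1.69 in CKD TRF. Neither difference in a diseased library reached the Control range. Sat1 minus Smox ran from 4.73 to 4.96 in Control and from 3.83 to 4.05 in CKD. Odc1 minus Oaz2 ran from 2.29 to 2.91 in Control, 1.38 to 1.89 in CKD kidneys and 1.83 to 2.43 in CKD TRF, where the last group overlapped Control.

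The scaling of the libraries bears on these changes. The sums of scaled reads did not overlap between groups, and were highest in Control (1076773 to 1180101), lowest in CKD (941189 to 978419) and between them in CKD TRF (987841 to 1025834). Scaling to equal sums moved the median change of all tested genes in CKD from 0.02 to 0.23, and the calls from 3297 higher and 3036 lower to 4989 higher and 1547 lower. Under it Odc1 was at -1.33, Oaz2 at -0.47 and Sat1 at -0.32, all still called, while Srm was not, and Amd1 (0.33, adjusted p 0.0237 in limma) and Smox were called higher. Median centring moved the median to -0.08, and the calls to 2650 higher and 3918 lower. Under it Odc1, Oaz2, Srm, Sat1 and Sms were called lower and no member higher.

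**Figure D4:**
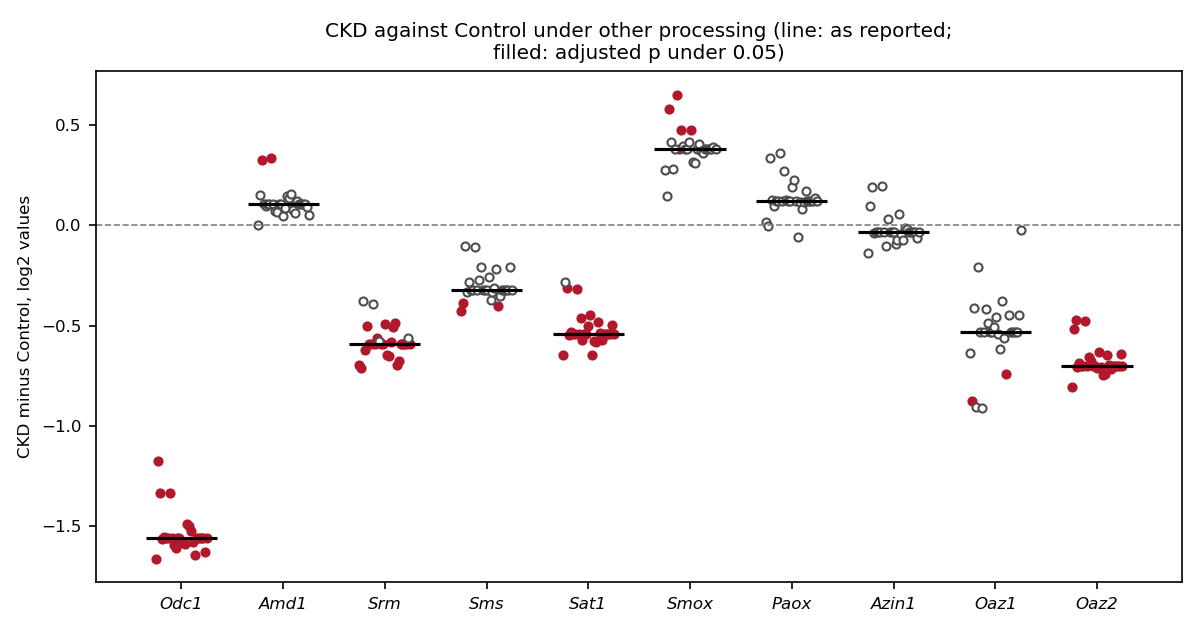
Difference between CKD and Control (vertical axis, log2 values) for each member as reported (line) and in each alternative analysis (points; filled red, adjusted p under 0.05). Odc1 runs from -1.66 to -1.17 and Oaz2 from -0.80 to -0.47 with every point filled, while Smox and Sms have points of both kinds.

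The levels of cell type markers and of androgen-raised genes differed between the groups. The summed level of 16 proximal tubule markers was 23216 to 25461 scaled reads in Control, 15426 to 17334 in CKD kidneys and 17103 to 19172 in CKD TRF, and 12 of the 16 were called lower in CKD. The sum of 10 kidney genes that androgen raises was 47535 to 67528 in Control, 25477 to 31206 in CKD kidneys and 26958 to 36425 in CKD TRF, with 9 of the 10 called lower in CKD. Macrophage and fibroblast markers were higher, with 10 of 10 and 6 of 6 called. Of all tested genes 21.8% were called lower and 23.6% higher in CKD. No defining marker of these 4 lists was at 0 throughout a group. The part of these shifts in the change of Odc1, Oaz2, Srm or Sat1 was not tested.

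Urothelium markers also differed. Their sum was 3.68 to 14.6 scaled reads in Control, 28.5 to 140 in CKD kidneys and 31.9 to 120 in CKD TRF. All 6 were called higher in CKD, beside 23.6% of all tested genes. Their sum was above 100 in CKD 2, CKD 4, CKD TRF 1, CKD TRF 3 and CKD TRF 4. Adipose markers ran from 104 to 226, from 71.3 to 749 and from 34.3 to 329, and Plin1 was at 0 in every Control library. Without those 5 libraries, which leaves 2 in CKD and a lone CKD TRF library assumed to vary like the others, Odc1 was at -1.63 in CKD (adjusted p 7.92e-06 in limma), Oaz2 at -0.64 (0.00367) and Sat1 at -0.49 (0.0344). Srm was at -0.56 and no longer passed (adjusted p 0.0727). In CKD TRF against Control, with the lone CKD TRF library, the changes were -1.14 for Odc1, -0.80 for Oaz2 and -0.66 for Srm. Those of Sat1 and Smox were -0.50 and 0.57. With all 12 libraries the values, in that order, were -1.13, -0.76, -0.61, -0.41 and 0.46. With fat and urothelium markers as a covariate over all 12 libraries, Odc1 and Oaz2 kept their calls in CKD TRF against Control. Srm (-0.60, adjusted p 0.0692 in limma), Sat1 (-0.43, 0.0733) and Smox (0.48, 0.151) lost theirs. In CKD that covariate cost Srm its call (-0.57, 0.0737), while Odc1, Oaz2 and Sat1 kept theirs. The covariate joins fat with urothelium, and a lone library cannot show what part urothelium has. The part of urothelium alone was not tested.

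The other genes of the pathway were taken from lists on supply, salvage, regulation, hypusine and transport, and on transcription factors known to act on Odc1. Of these 39 genes 33 were tested, and in CKD against Control 7 were called higher and 9 lower, with a median change of -0.14. These counts are near the share over all tested genes, of which 23.6% were called higher and 21.8% lower. The lists below are small, and their counts are to be read against the same shares. None was called in CKD TRF against CKD. Arg1, Otc, Oaz3, Satl1, Atp13a4 and Slc12a8 fell under the filter. Those called with a change of at least 1.5-fold, and a few given whatever their values, are described by role.

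Among 5 tested further regulators and catabolic enzymes, 1 was higher and 2 were lower in CKD, beside 23.6% and 21.8% of all tested genes. Aoc1, diamine oxidase, which oxidises putrescine and histamine, rose from 2.60 ± 1.13 scaled reads (SD, n = 4) in Control to 16.5 ± 3.57 in CKD and 14.5 ± 3.27 in CKD TRF. Its change was 2.31 ± 0.22 (SE, adjusted p 7.46e-08 in limma) in CKD, and the groups did not overlap. Sat2, named for its likeness to Sat1, fell by 1.04 in CKD (adjusted p 0.000184). Azin2, the second antizyme inhibitor, lay near the floor at 1 to 34 reads per library, with a change of -0.16 (adjusted p 0.699). Oaz3, the antizyme of male germ cells, had at most 6 reads in any library.

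In the hypusine list, 2 of 4 genes were called lower and none higher in CKD, beside 21.8% and 23.6% of all tested genes. Eif5a encodes the translation factor whose lysine is turned into hypusine with spermidine. It was at 358 ± 62.5 scaled reads (SD, n = 4) in Control, 213 ± 19.1 in CKD kidneys and 254 ± 46.3 in CKD TRF. The change was -0.73 ± 0.13 (SE, adjusted p 0.000155 in limma) in CKD and -0.50 ± 0.13 (adjusted p 0.00565) in CKD TRF, where quantile normalization lowered it to -0.25 and the call was lost (adjusted p 0.127). Without the 5 libraries rich in urothelium markers the CKD TRF change was -0.51, from a lone CKD TRF library.

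Of 9 tested transport genes, 3 were higher and 2 lower in CKD, beside 23.6% and 21.8% of all tested genes. The cationic amino acid carriers, which bring in arginine and ornithine, rose: Slc7a1 by 1.14 and Slc7a2 by 1.68 (adjusted p 1.88e-05 and 3.21e-07 in limma). Slc3a2, the heavy chain of amino acid exchangers, changed by -0.70 (adjusted p 0.000332 in limma). Slc22a3 was higher by 0.82 (adjusted p 0.0264) from at most 8 reads in a Control library, and lost its call in 6 alternative analyses, among them leaving out Control 4, CKD 2 or CKD 4 (adjusted p 0.0869, 0.0808 and 0.0827). It was at 0.37 (adjusted p 0.491) with the fat and urothelium covariate and at 0.49 (adjusted p 0.278) without the 5 libraries rich in urothelium markers.

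In the supply lists, 1 of 4 tested genes for ornithine and arginine was higher and 1 lower, and 1 of 9 for S-adenosylmethionine and salvage was higher and 2 lower. Neither list stands clear of the 45.4% called among all tested genes. Aldh18a1, which makes the precursor of ornithine and proline from glutamate, was higher by 0.78 (adjusted p 0.00952 in limma), from at most 5 reads in a Control library. The methionine salvage enzymes split, with Enoph1 higher by 0.80 (adjusted p 0.011) and Apip at -0.90 (adjusted p 0.00626). Without the 5 libraries rich in urothelium markers the calls of Aldh18a1 and Enoph1 in CKD were lost (adjusted p 0.0616 and 0.0519 in limma). The CKD changes were then 0.82 and 0.86. Quantile normalization lowered them to 0.55 and 0.48, and the calls were lost there too (adjusted p 0.0685 and 0.114). In CKD TRF against Control the changes of Aldh18a1, Enoph1 and Apip were 0.99, 0.66 and -0.81. Without the 5 libraries, which leaves a lone CKD TRF library, they were 0.82, 0.46 and -0.60. With the fat and urothelium covariate the CKD calls of Aldh18a1 (0.77, adjusted p 0.0854 in limma) and Enoph1 (0.86, 0.062) were lost, and that of Apip was kept. In CKD TRF against Control it cost Enoph1 its call (0.72, 0.126), while Aldh18a1 and Apip kept theirs. The covariate joins fat with urothelium, so the part of urothelium alone in these changes was not tested.

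Myc, a transcription factor known to bind the Odc1 gene, moved the other way from Odc1. It was at 0.534 ± 0.595 scaled reads (SD, n = 4) in Control, 2.73 ± 0.470 in CKD kidneys and 0.883 ± 0.257 in CKD TRF, near the floor in Control. Its change was 1.35 ± 0.26 (SE, adjusted p 0.000345 in limma) in CKD. In CKD TRF against CKD it was -0.99 and not called (adjusted p 0.705), though all CKD TRF libraries lay below all CKD libraries, as for 2.13% of all tested genes.

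**Figure D5:**
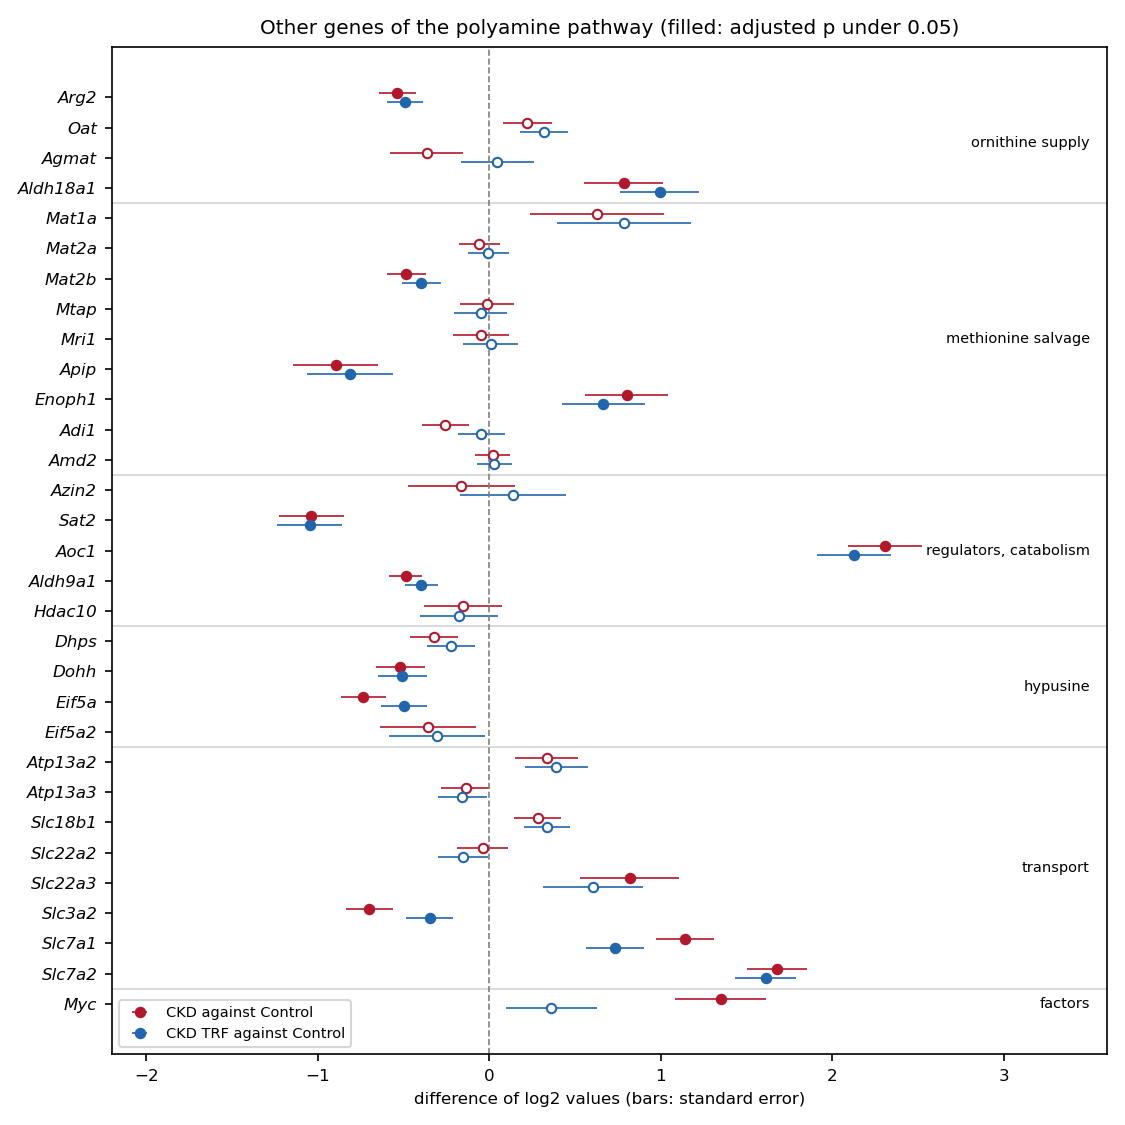
Difference of log2 values against Control (horizontal axis, bars are standard errors) for the other pathway genes tested and reported here, in CKD (red) and CKD TRF (blue); filled points have an adjusted p under 0.05. Aoc1 lies farthest to the right at 2.31 in CKD and Sat2 farthest to the left at -1.04.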

How the data were processed

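Per the labels' protocols, Trizol RNA (500 ng) was made into QuantSeq libraries. Per the submitters' processing notes, Bowtie2 and bedtools were used with mm10; roles, versions, strand setting and scaling method are not given in the sources used here. The authors deposited 1 log2 value per gene and library. From the values, these are log2 of scaled reads plus 1: 98.1% to 100% of the values below 20 scaled reads came out as whole reads within 0.1. No 2 libraries were identical.

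For 35 symbols with more than 1 entry the highest was kept. The upper 60% of genes by mean log2 value, 13943 with a mean of at least 0.729, entered limma 3.58.1 (R 4.3.3), with a mean per group over all 12 libraries, a prior spread that followed the mean level, a two-sided moderated test and Benjamini-Hochberg adjustment. The fit was tested on simulated data. Members, lists and tests were chosen with earlier results of these data known. All 10 members are named, along with other pathway genes called in CKD against Control at 1.5-fold or more, or called in CKD TRF against CKD, and Myc, Eif5a, Azin2, Oaz3 and Aoc1. Some genes counted in the lists are not reported here by name. Genes like Odc1 and Sat1 were the 5 outside the members with the smallest root mean square difference of centred values. The 27 alternatives covered scaling, pseudocount, filter, test, spread, weights, covariate, replicate block, groups fitted and left-out libraries. Of these, leaving out the libraries rich in urothelium markers and summing near-identical copies were chosen after seeing the data.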

Additional observations from a re-analysis of the deposited data

Results flagged for a closer look

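In 3 cases a library stood apart from the other 3 of its group, when the gap to the nearest library was divided by the range of the group. Chance marks about 1 in 20 groups of 4 in this way, and 30 groups were looked at. Odc1 in Control 4 was at 10.15, while the other Control libraries started at 9.84, and the gap took 0.908 of the range. Azin1 in CKD TRF 2 was at 6.88, with the lowest CKD TRF library at 6.63 and a gap of 0.902 of the range. Oaz1 in CKD TRF 3 was at 1.45, with the lowest library at 0.84 and a gap of 0.831 of the range, from few reads. Odc1 kept its calls against Control without Control 4.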

How the results depend on the processing

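Of the 10 members, Odc1 and Oaz2 kept their direction and their calls against Control in all 27 alternatives, and no member was called in CKD TRF against CKD in any. With the fat and urothelium markers as a covariate 4111 genes were called in CKD against Control and 3160 in CKD TRF against Control, in place of 6333 and 5225. Without the libraries rich in urothelium markers the counts were 4037 and 1478. Leaving out each library in turn gave 5388 to 6311, 4396 to 5150 and, for CKD TRF against CKD, 0 to 1. That 1 gene, without CKD TRF 1, was Plekhh2 (2.70), and with no filter on low values 1 gene was called, Adam7 (-0.52), both named after their values were seen. In CKD TRF against Control the calls were 2724 higher and 2501 lower, against 3656 and 1431 after scaling to equal sums, 2296 and 3227 after median centring and 3423 and 1380 with voom. In CKD against Control voom gave 4747 and 1517. Quantile normalization turned Oaz1-ps in CKD against Control to 0.27 (adjusted p 0.0294 in limma), and the cause was not tested. Sat1 in CKD TRF against Control lost its call in 7 alternatives, among them leaving out Control 2 or CKD TRF 1 (adjusted p 0.0523 and 0.0598). Srm in CKD lost its call in 4, with an adjusted p of at most 0.0737. Deviations of same-numbered libraries were weakly correlated between groups, at -0.179 to 0.11. The labels do not say whether the replicate numbers mark pairs. The replicate block gave 6131, 0 and 5033 calls, and among the members it changed only the call of Smox in CKD TRF against Control. Depth limits Oaz1, Azin2, Slc22a3, Aldh18a1 and Myc, which rest on few reads.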
